A study of Mus musculus with 18 samples.

Results

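AOS (alginate oligosaccharides) was tested in cultured mouse testes as 1 pooled comparison, in which the 12 samples with AOS were compared with the 6 samples without it and busulfan status was held as a block. All 18 samples of the series entered the comparison, and 15790 of the 22657 genes in the table reached 1 FPKM (fragments scaled by gene length and by the mapped fragments of the sample) in at least 3 of the 18 samples and were tested. The samples came from ICR mice and formed 6 groups of 3. CTA0, CTA10 and CTA50 were testes of mice that had no busulfan, cultured with AOS at 0, 10 or 50 μg/mL, and CTBA0, CTBA10 and CTBA50 were testes of mice injected once with busulfan at 40 μg per g body weight, cultured with the same AOS concentrations. Age at injection was 3 weeks, testes were collected 2 weeks later, and every culture ran for 48 h in DMEM/F12 with serum. The series design text gives the AOS doses per kg body weight, whereas the sample labels give them per mL of medium, and the latter are used. The labels do not say whether the samples of a group came from separate animals, so p-values measure only the spread between these samples.

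Spermatogenesis runs from spermatogonia, the dividing stem and progenitor cells, through spermatocytes, which carry out meiosis, to round and then elongating spermatids, in which the acrosome, the flagellum and the compact chromatin of sperm are built. Sertoli cells support these stages inside the tubule, while Leydig cells, macrophages and vessels lie between the tubules. Busulfan is an alkylating drug known for killing spermatogonia, and AOS are short sugar chains obtained from the alginate of brown algae.

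With AOS, 520 genes were called higher (3.29% of the genes tested) and 248 were called lower (1.57%), by limma with Benjamini-Hochberg adjusted p under 0.05. Each of these 768 genes had the same sign of difference with and without busulfan, which a small p in a comparison pooled over both states already favours. Of all genes tested, 29.6% were higher in both states and 44.5% were lower in both. The called rises included 9 genes of meiosis and 2 of round spermatids from the lists, among them Piwil1, Ccna1 and Spata16, and Zmynd10 of the flagellum. The called falls included Serpina5, Ly6c1, Mrps6 and Hmgb3, with differences below 0 of similar value in both states. They also included 6 genes of fat and 2 of simple epithelium, such as Cfd and Krt7. The differences of these fat and epithelium genes were nearer to 0 without busulfan than with it. The changes were small: the median log2 difference was 0.52 for the genes called higher and -0.41 for those called lower, against -0.06 for all genes tested, and 1 rise and 15 falls reached 1 on the log2 scale. All differences are on the log2(FPKM + 1) scale, on which a fold change of a gene near 0 FPKM appears smaller than it is.

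The calls lay close to the threshold. The smallest adjusted p was 0.0367, 2 genes were under 0.04, and 3450 genes were under 0.1. Leaving out 1 sample at a time gave 0 called genes in 10 of 18 fits, when the sample left out was CTA0 replicate 2, CTA10 replicate 3, CTA50 replicate 1, 2 or 3, CTBA0 replicate 1 or 3, CTBA10 replicate 2, or CTBA50 replicate 2 or 3. Without CTA0 replicate 3 it gave 1 gene higher and 5 lower, and in the other 7 fits it gave at most 1186 higher and 802 lower. The share of genes with an unadjusted p under 0.05 moved less, from 21.9% to 39.1% over the 18 fits, with 34.8% for all samples (2464 genes higher and 3029 lower). A replicate block over all 18 samples, the 10 μg/mL samples alone, or the limits of the study (adjusted p of at most 0.001 and a log2 difference of at least 1) also gave 0 calls by limma. A replicate block among the 9 busulfan samples only, tried after the data were seen, gave 1506 higher and 1309 lower. The words "rose" and "fell" stand for a call in the fit with all 18 samples.

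**Figure D1:**
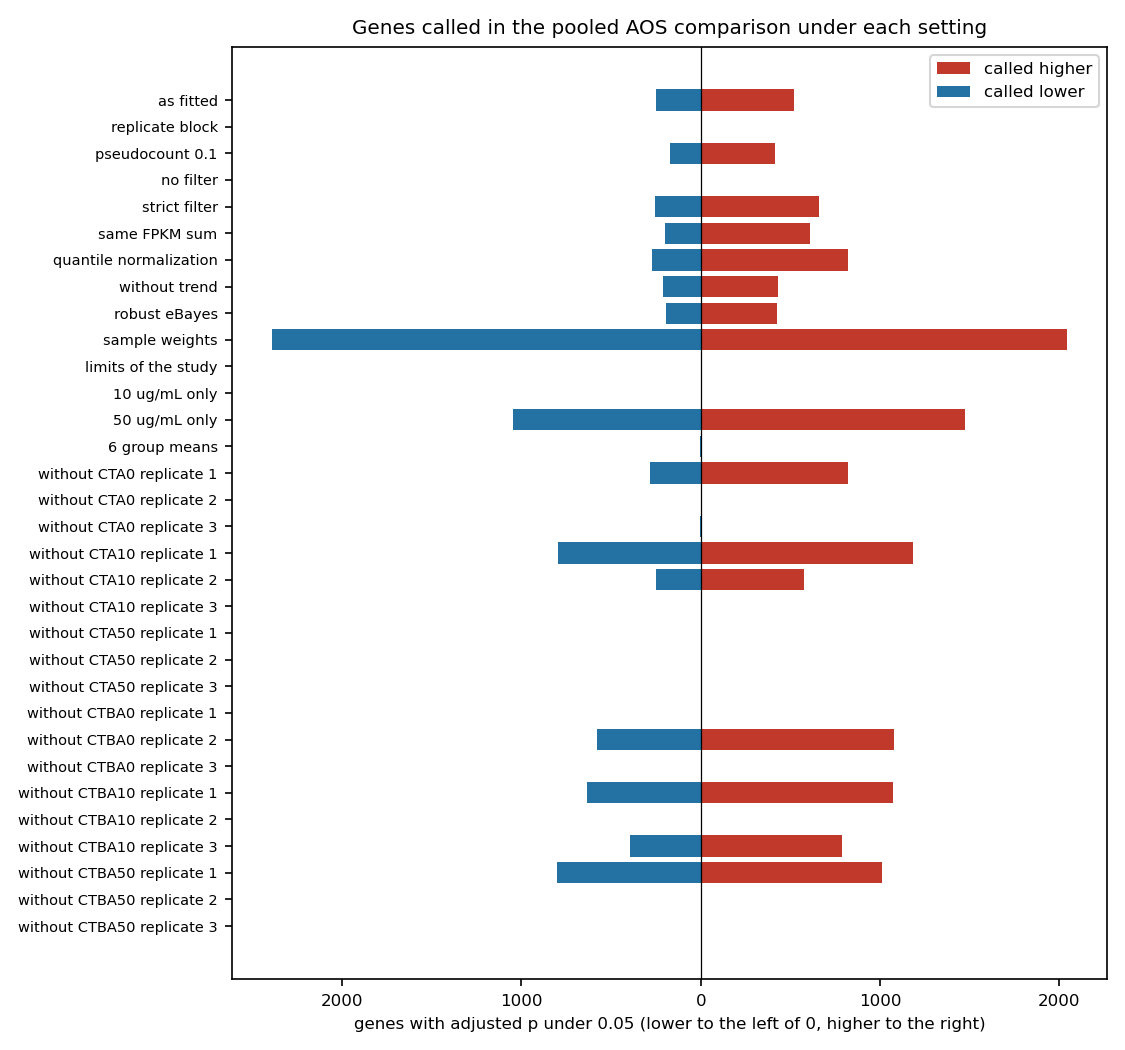
Number of genes called higher (right of 0, red) and lower (left of 0, blue) with AOS in the pooled comparison, for all 18 samples (as fitted, 520 and 248) and for each other setting or left-out sample. In 10 of the 18 fits without 1 sample no gene was called.

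Within each busulfan state few genes passed the same threshold. Without busulfan, 4 genes were called (0.0253% of those tested), 2 higher and 2 lower, and with busulfan 33 were called (0.209%), 1 higher and 32 lower.  The median difference of the genes called higher was 0.53 without busulfan and 0.47 with it. That of the genes called lower was -0.36 and -0.39. The AOS difference itself differed between the states for 2 genes, Krt7 and Krt8 (0.0127%), by limma's interaction test, and 976 genes (6.18%) had an unadjusted interaction p under 0.05. Among these 976 were 7 of the genes called higher and 29 of those called lower.

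**Figure D2:**
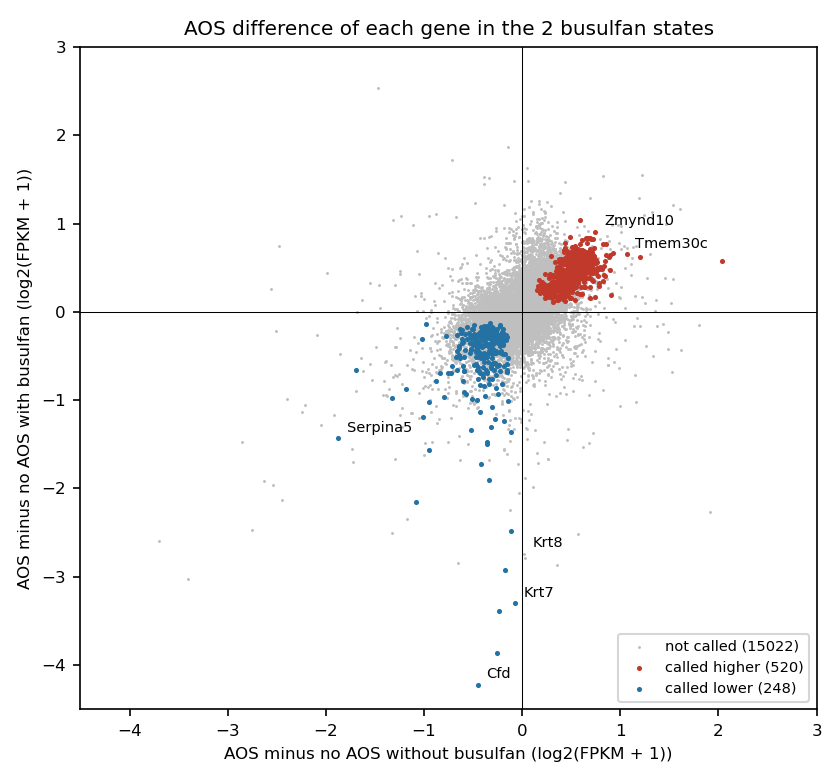
AOS difference of each of the 15790 genes without busulfan (horizontal axis) and with busulfan (vertical axis), both as log2(FPKM + 1). Red points (520) were called higher and blue points (248) lower in the pooled comparison, and all of them lie in the quadrants of equal sign. The blue points at the bottom, close to 0 on the horizontal axis, are genes such as Krt7 and Cfd.

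A stricter description counts the genes whose 6 samples with AOS lay all above or all below the 3 samples without it, in each state. The groups stood apart in this way in both states for 97 genes: 26 were higher in both (0.165% of the genes tested), 64 were lower in both (0.405%) and 7 went in opposite directions (0.0443%). Without busulfan 13.5% of genes stood apart, and with busulfan 6.47%. Among the 26 were 24 called genes, and among the 64 were 42. The balance between the directions depended on the scaling, since quantile normalization gave 62 higher and 28 lower.

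Genes of the meiotic and spermatid lists made up the largest group of list genes called higher. Of 22 tested genes that mark meiotic prophase spermatocytes, 9 rose and 0 fell (Sycp2, Syce1, Spo11, Stag3, Hspa2, Piwil1, Ccna1, Ybx2 and Tdrd5), and 20 were higher in both states. Of all genes tested, 3.29% rose and 29.6% were higher in both states. The median difference of the meiotic genes was 0.43, with 0.36 without busulfan and 0.38 with it. Of 22 round spermatid genes, 2 rose (Spata16 and Ldhc), 20 were higher in both states and the median was 0.45. Of 22 elongating spermatid genes 0 were called, although 18 had an unadjusted p under 0.05 for a higher value. Their median was 0.22 without busulfan and 0.83 with it. The 14 spermatogonium genes had 0 calls by limma (1 higher and 2 lower at an unadjusted p under 0.05), a median of -0.03 and opposite signs in the 2 states for 8 of them. The medians of the meiotic, round and elongating lists kept their sign without any 1 of the 18 samples (0.36 to 0.49, 0.37 to 0.55 and 0.45 to 0.66) and under both other scalings. The mean level of the meiotic list, in log2(FPKM + 1), was 4.41 to 4.82 in CTA0 and 4.93 to 5.13 in the 6 samples with AOS and no busulfan, which did not overlap. With busulfan the values were 2.82 to 3.36 and 3.16 to 3.74, and they overlapped. Of single genes, 13.5% stood apart without busulfan and 6.47% with it, in either direction. Replicate 2 was the highest of its group in CTBA0 (3.36), CTBA10 (3.64) and CTBA50 (3.74).

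**Figure D3:**
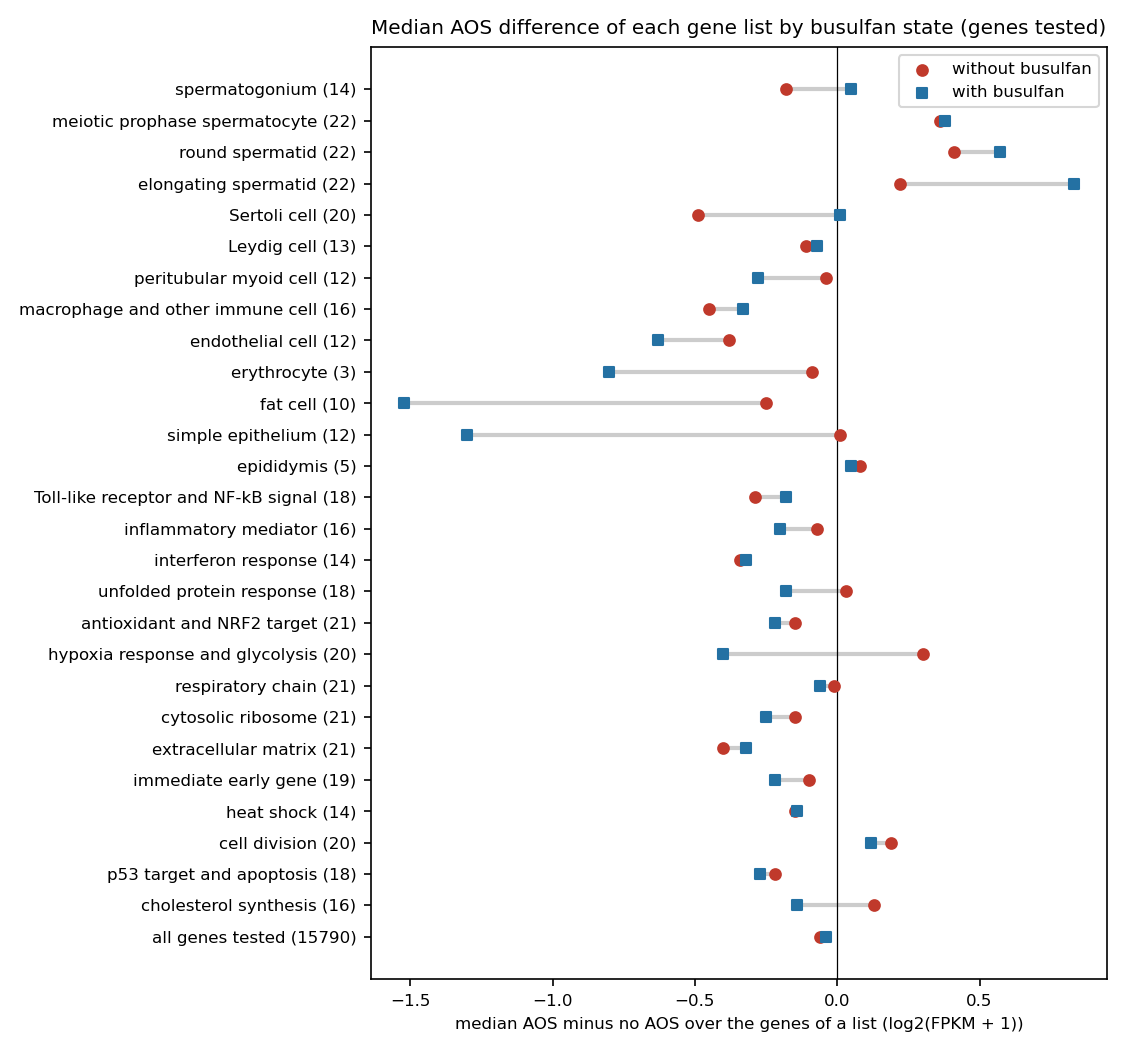
Median AOS difference (log2(FPKM + 1), horizontal axis) of the genes of each of 27 lists and of all genes tested, without busulfan (red circles) and with busulfan (blue squares), with the number of genes tested in parentheses. The meiotic and both spermatid lists lie right of 0 in both states, the endothelial, interferon and matrix lists lie left of 0 in both, and the fat and simple epithelium lists are far left of 0 with busulfan.

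The promoters of 3 of these meiotic genes and of 1 interferon gene are shown, because they hold letters known as binding motifs of MYB proteins and of interferon-activated factors. A-MYB, encoded by Mybl1, is the MYB protein of spermatocytes. Each sequence holds the 250 bases before the start of the gene in GRCm38.p6 (RefSeq), written 5′ to 3′ on the gene's strand. In Piwil1 (chr5:128735996-128736245, plus strand), Tdrd5 (chr1:156303349-156303598, minus strand) and Hspa2 (chr12:76404120-76404369, plus strand), capitals mark CAACGG or TAACGG on either strand. In Ifit3 (chr19:34583279-34583528, plus strand), capitals mark 2 GAAA blocks separated by any 2 bases, on either strand.
Piwil1: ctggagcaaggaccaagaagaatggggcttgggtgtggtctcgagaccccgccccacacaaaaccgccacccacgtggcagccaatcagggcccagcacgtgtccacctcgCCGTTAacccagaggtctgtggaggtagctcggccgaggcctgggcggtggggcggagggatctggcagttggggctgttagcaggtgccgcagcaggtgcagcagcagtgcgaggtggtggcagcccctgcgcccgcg
Tdrd5: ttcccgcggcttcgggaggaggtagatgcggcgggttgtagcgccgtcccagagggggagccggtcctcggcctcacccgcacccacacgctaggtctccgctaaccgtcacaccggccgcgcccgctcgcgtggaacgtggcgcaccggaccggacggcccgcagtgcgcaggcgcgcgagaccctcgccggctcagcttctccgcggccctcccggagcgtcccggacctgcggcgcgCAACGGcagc
Hspa2: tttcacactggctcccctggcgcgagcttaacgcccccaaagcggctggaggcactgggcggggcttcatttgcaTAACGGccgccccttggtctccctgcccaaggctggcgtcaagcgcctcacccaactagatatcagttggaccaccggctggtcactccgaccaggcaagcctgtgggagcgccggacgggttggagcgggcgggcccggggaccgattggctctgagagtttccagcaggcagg
Ifit3: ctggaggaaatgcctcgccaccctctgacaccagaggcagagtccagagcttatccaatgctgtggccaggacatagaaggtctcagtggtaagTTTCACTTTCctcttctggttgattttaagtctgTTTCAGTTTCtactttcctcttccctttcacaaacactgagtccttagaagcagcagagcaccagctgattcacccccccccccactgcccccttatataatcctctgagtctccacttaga
The MYB letters began 139 bases before the start in Piwil1, 10 bases before it in Tdrd5 and 175 bases before it in Hspa2, and Ifit3 held 2 interferon matches, at 156 and 122 bases.

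The MYB letters were in 6.1% of all 32851 promoters and in 8.18% of those of the genes tested. They were in 14.5% of the 516 promoters of genes called higher and in 6.76% of the 222 promoters of genes called lower. Over the whole 300 bases of the promoter table, which ends 50 bases after the start, these shares were 7.68%, 10.2%, 21.9% and 7.21%. The median GC content was 57.6% in the promoters of genes called higher and 58.4% in those of all genes tested. Among the meiotic genes with a promoter in the table, 8 of 20 held the letters (40%), against 9.75% of the tested genes with a promoter. A match describes these letters alone. Mybl1 itself was at 7.96, 5.99 and 9.54 FPKM in CTA0 and at 11.1 to 13.12 FPKM (median 11.5) in the 6 samples with AOS and no busulfan. With busulfan it was at 2.29, 3.54 and 2.47 FPKM and then at 2.23 to 3.93 FPKM (median 2.94). Its groups stood apart without busulfan and overlapped with it, and the pooled difference of 0.33 ± 0.11 (SE) was not called (adjusted p = 0.0669).

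Piwil1, a PIWI protein that protects the germline with small RNAs in pachytene spermatocytes, was at 17.77, 9.13 and 22.06 FPKM in CTA0 and at 25.92 to 32.18 FPKM (median 27.3) with AOS. In the busulfan samples it was at 0.75, 1.29 and 0.56 FPKM without AOS and at 1.11 to 1.85 FPKM (median 1.36) with it. All 6 AOS samples lay above CTA0, whereas with busulfan CTBA0 replicate 2 lay within the AOS range. The pooled log2 difference was 0.63 ± 0.14 (SE; adjusted p = 0.0451; exact permutation p = 0.000425). Tdrd5, a Tudor protein of the same pathway, was at 15.29, 9.86 and 16.09 FPKM in CTA0 and at 20.06 to 29.69 FPKM (median 22.2) with AOS, and with busulfan it went from 5.86, 6.33 and 3.73 FPKM to 5.52 to 8.88 FPKM (median 6.87). It rose by 0.54 ± 0.13 (SE; adjusted p = 0.0451), with no overlap in the first state and an overlap in the second. Hspa2, a chaperone of spermatocytes, was at 174.72, 116.6 and 167.34 FPKM in CTA0 and at 176.52 to 251.66 FPKM (median 236) with AOS. With busulfan it was at 84.78, 106.88 and 61.39 FPKM, and at 90.05 to 171.27 FPKM (median 123) with AOS. The rise was nearly equal in the 2 states, 0.55 ± 0.22 and 0.58 ± 0.22 (SE).

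Ccna1, the cyclin A of male meiosis, was at 36.58, 20.66 and 39.26 FPKM in CTA0 and at 36 to 67.01 FPKM (median 55.7) with AOS. It was at 16.31, 21.82 and 12.07 FPKM in CTBA0 and at 18.77 to 37.25 FPKM (median 29.5) with AOS and busulfan. The groups overlapped in both states, and the difference was 0.73 ± 0.25 without busulfan and 0.72 ± 0.25 with it (SE). The other called meiotic genes rose by 0.47 (Sycp2, a protein of the synaptonemal complex), 0.58 (Syce1, of the same complex), 0.56 (Spo11, which makes the breaks that start recombination), 0.47 (Stag3, a meiotic cohesin) and 0.62 (Ybx2, an RNA-binding protein of germ cells). Other meiotic genes did not pass. Sycp3, a core protein of the synaptonemal complex, had a difference of 0.17 ± 0.10 (SE; adjusted p = 0.203).

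In the spermatid lists Spata16, needed for the acrosome, rose by 0.63 ± 0.15 (SE; adjusted p = 0.0461), and Ldhc, the lactate dehydrogenase of germ cells, by 0.60 ± 0.16 (SE; adjusted p = 0.0468). Ldhc was at 1024.33, 643.69 and 898.5 FPKM in CTA0, at 1012.43 to 1827.77 FPKM (median 1310.1) with AOS, at 603.7, 758.74 and 411.71 FPKM in CTBA0 and at 673.66 to 1154.65 FPKM (median 842) with AOS and busulfan. In each state the highest sample without AOS lay above the lowest sample with it. Prm1, a protamine that packs sperm DNA, was at 1204.6, 679.41 and 905.02 FPKM in CTA0 and at 719.62 to 1489.6 FPKM (median 1098.8) with AOS, which overlapped. With busulfan it was at 621.92, 1019.91 and 910.63 FPKM and then at 1180.77 to 3056.72 FPKM (median 1612.4), with no overlap. Its pooled difference of 0.64 ± 0.21 (SE) was not called (adjusted p = 0.0669), and neither was that of Tnp2, a transition protein (0.55 ± 0.21; adjusted p = 0.0943). Odf2 of the sperm tail had the smallest p of the elongating list and missed the threshold (0.56 ± 0.16; adjusted p = 0.0512).

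Among genes with an established symbol and a mean of at least 2 FPKM, the 12 largest rises were Tmem30c, Zmynd10, Ptpn20, Rpl10l, Pabpc6, Kif9, Mesp1, Prss45, Il4i1b, Ccna1, Mgat4d and Ccdc38, with differences from 0.86 down to 0.70. Among them, Ptpn20 is a tyrosine phosphatase, Prss45 belongs to a cluster of testis serine proteases and Ccdc38 is needed for the sperm flagellum. Zmynd10, needed to assemble the dynein arms of cilia and flagella, was at 54.12, 35.97 and 55.98 FPKM in CTA0 and at 62.83 to 93.02 FPKM (median 85.7) with AOS. With busulfan it was at 10.54, 20.15 and 8.06 FPKM and then at 18.02 to 34.39 FPKM (median 22.1). The groups stood apart without busulfan, and CTBA0 replicate 2 reached into the AOS range with it. The difference was 0.75 ± 0.25 and 0.91 ± 0.25 in the 2 states (SE) and 0.83 ± 0.17 in the pooled comparison. Tmem30c, a member of the family of flippase subunits, had the largest rise under these limits, 0.86 ± 0.20 (SE; adjusted p = 0.0451). Tmem30c was at 12.56, 5.07 and 13.82 FPKM in CTA0 and at 17.75 to 25.76 FPKM (median 21.9) with AOS, and at 2.37, 5.24 and 2.02 FPKM in CTBA0 and 2.78 to 7.04 FPKM (median 5.66) with AOS and busulfan, with overlap only in the second state. The 1 rise over 1, named after its values were seen, was that of BGI_novel_G001737 (1.31 ± 0.34, SE), a gene model with no gene number. Kif9, a kinesin of the flagellum, rose by 0.77 ± 0.22 (SE; adjusted p = 0.0497). Rpl10l and Pabpc6 are germ-cell copies of genes expressed in all cells, Rpl10 and Pabpc1, and the division of reads between such copies is uncertain.

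Of the 520 genes that rose with AOS, 515 (99%) had a lower mean in the 9 busulfan samples than in the 9 others, against 48.2% of all genes tested. Of the 248 that fell, 61 (24.6%) had. In whole testis, fewer cells of a type and less RNA per cell cannot be told apart.

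Some genes that rose did not overlap between the groups in either state, and 3 of them are described, chosen after their values were seen. Lypd11, a gene of the Ly6 and uPAR domain family, was at 10.95, 8.58 and 12.6 FPKM in CTA0 and at 16.51 to 21.04 FPKM (median 18.8) with AOS. It was at 0.93, 1.45 and 0.63 FPKM in CTBA0 and at 1.59 to 2.75 FPKM (median 1.76) with AOS and busulfan. The ratio of group means was 1.74 without busulfan and 2 with it, and the pooled difference was 0.67 ± 0.10 (SE; adjusted p = 0.0367). Alx1, a homeobox transcription factor, went from 7.85, 4.81 and 7.56 FPKM to 9.96 to 13.24 FPKM (median 11.5) without busulfan, and from 3.32, 3.06 and 2.05 FPKM to 3.6 to 6.87 FPKM (median 5.11) with it. Lef1, a transcription factor of the Wnt pathway, went from 7.14, 5.28 and 8.54 FPKM to 8.87 to 14.41 FPKM (median 12.8), and from 1.1, 1.49 and 0.91 FPKM to 1.6 to 2.53 FPKM (median 1.86). All 3 genes rose, Alx1 by 0.68 ± 0.13 and Lef1 by 0.59 ± 0.12 (SE; adjusted p = 0.0451 for both).

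Of 20 cell division genes, 5 rose and 0 fell, with a list median of 0.10, where 3.29% of all genes tested rose. The list was mixed: 11 genes were higher in both states, 4 were lower in both and 5 had opposite signs. Bub1b, of the spindle checkpoint, was at 12.27, 12.49 and 13.09 FPKM in CTA0 and at 13.55 to 18.22 FPKM (median 16.4) with AOS, and at 3.3, 3.74 and 3.43 FPKM in CTBA0 and 3.84 to 4.72 FPKM (median 4.33) with AOS and busulfan, without overlap in either state. Its rise was 0.29 ± 0.06 (SE; adjusted p = 0.0451). Aurka (0.53) and Plk1 (0.48), kinases of mitosis and meiosis, and Cenpe (0.31) and Kif11 (0.21), motors of the spindle, also rose.

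**Figure D4:**
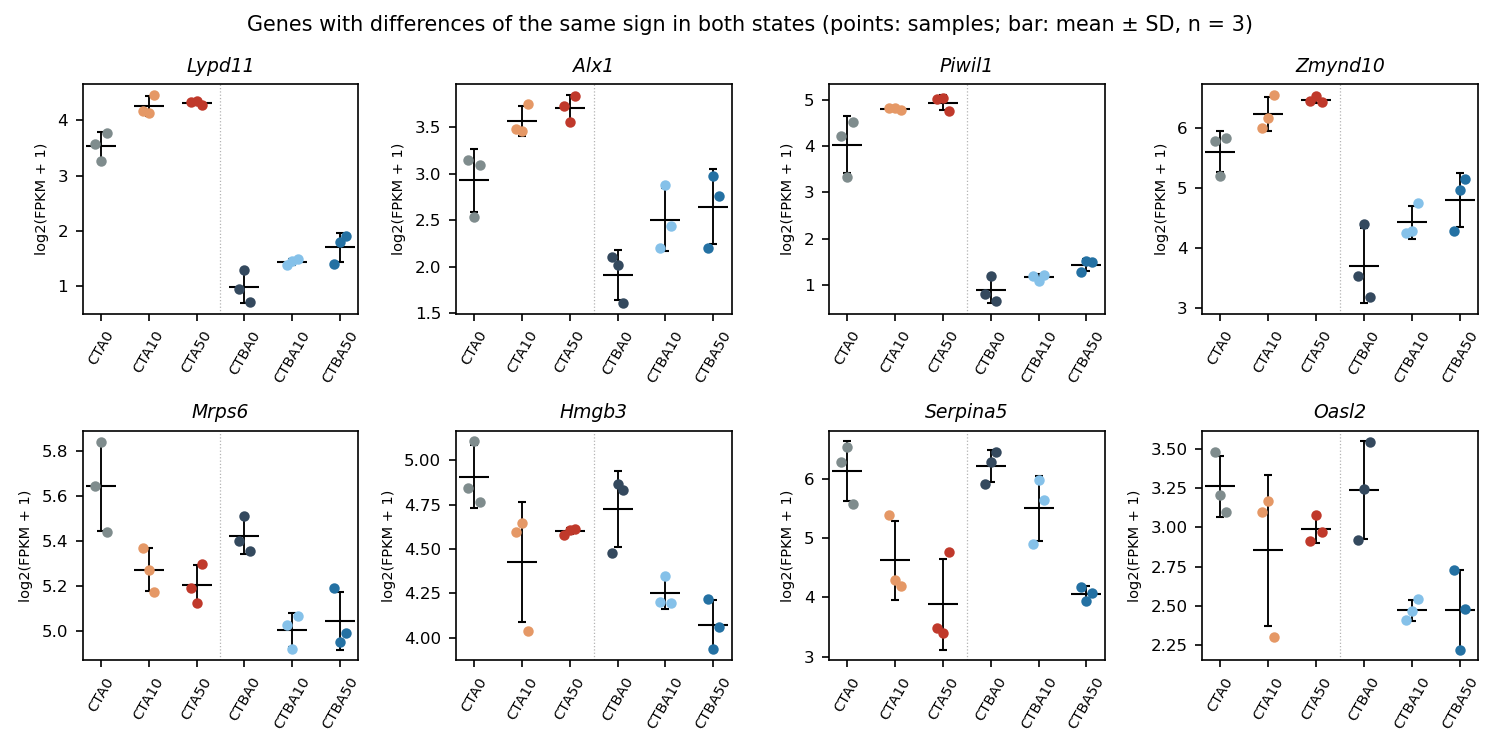
Levels of 8 genes in log2(FPKM + 1) in each of the 18 samples (points) by group, with the mean and SD of 3 samples (bars). Lypd11, Alx1, Piwil1 and Zmynd10 were higher with AOS in both states, and Mrps6, Hmgb3, Serpina5 and Oasl2 were lower. The dotted line separates samples without busulfan (left) from samples with it (right), and each panel has its own scale, which does not start at 0.

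Among the falls that were alike in both states, Mrps6, a protein of the mitochondrial ribosome, had the smallest p. It was at 49.04, 56.25 and 42.43 FPKM in CTA0 and at 33.87 to 40.23 FPKM (median 36.5) with AOS, and at 41.16, 44.52 and 39.85 FPKM in CTBA0 and 29.28 to 35.51 FPKM (median 31.2) with AOS and busulfan. No sample with AOS reached the samples without it in its state, and Mrps6 fell by 0.40 ± 0.06 (SE; adjusted p = 0.0367), with -0.40 ± 0.09 in each state. Hmgb3, a chromatin protein, was at 27.76, 33.43 and 26.23 FPKM in CTA0, at 15.46 to 24.07 FPKM (median 23.3) with AOS, at 21.29, 28.16 and 27.48 FPKM in CTBA0 and at 14.34 to 19.39 FPKM (median 17.4) with AOS and busulfan. Its groups stood apart in both states, and it fell by 0.48 ± 0.09 (SE; adjusted p = 0.0451). Mrps6 and Hmgb3 were chosen for description after their values were seen.

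Serpina5, a secreted inhibitor of serine proteases, was at 76.72, 91.54 and 46.59 FPKM in CTA0 and at 9.55 to 40.79 FPKM (median 17.9) with AOS. With busulfan it was at 59.37, 76.32 and 86.57 FPKM and then at 14.28 to 61.74 FPKM (median 22.9). The groups stood apart without busulfan, and with busulfan the highest AOS sample passed CTBA0 replicate 1. It fell by 1.65 ± 0.33 (SE; adjusted p = 0.0451), with -1.87 ± 0.47 and -1.43 ± 0.47 in the 2 states. At 10 μg/mL alone the difference was -1.11 and at 50 μg/mL alone -2.20. Ly6c1, a surface antigen of vessel and blood cells, was at 135.3, 179.89 and 77.53 FPKM in CTA0, at 41.65 to 106.14 FPKM (median 55.4) with AOS, at 170.27, 154.26 and 128.96 FPKM in CTBA0 and at 40.28 to 111.06 FPKM (median 63.3) with AOS and busulfan. CTA0 replicate 3 lay within the AOS range, and with busulfan there was no overlap. Ly6c1 fell by 1.10 ± 0.22 (SE; adjusted p = 0.0451). Its neighbour Ly6c2 has a nearly identical sequence, so reads of the 2 genes may not be separable. Scn3b, a sodium channel subunit, fell by 1.15 ± 0.27 (SE; adjusted p = 0.0451).

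Endothelial genes were lower in both states for 12 of 12 tested, against 44.5% of all genes tested, with a median of -0.48 and with Pecam1 and Tek among the called falls. Pecam1, an adhesion protein of vessels, was at 11.26, 16.17 and 12.36 FPKM in CTA0, at 8.12 to 12.31 FPKM (median 9.72) with AOS, at 25.98, 23.45 and 19.96 FPKM in CTBA0 and at 6.27 to 17.66 FPKM (median 12.9) with AOS and busulfan. The groups overlapped only without busulfan, and it fell by 0.61 ± 0.16 (SE; adjusted p = 0.0461). Tek, the angiopoietin receptor, fell by 0.35 ± 0.09 (SE; adjusted p = 0.0461). The mean level of the endothelial list was 3.32 to 3.67 in CTA0 and 2.87 to 3.2 with AOS, and 3.83 to 3.91 in CTBA0 and 2.65 to 3.65 with AOS and busulfan, in log2(FPKM + 1). Neither state overlapped. Of 21 matrix genes 1 fell, Col18a1 (by 0.48), and 17 were lower in both states, with a median of -0.41. Of all genes tested, 1.57% fell. Of 16 macrophage and immune genes 0 were called (1 higher and 9 lower at an unadjusted p under 0.05) and 14 were lower in both states (median -0.44), and Adgre1, a macrophage surface marker, had a difference of -0.31 ± 0.16 (SE; adjusted p = 0.173).

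Of all genes tested, 3.29% rose and 1.57% fell. Sertoli genes had 1 call of 20, Cst12, a cystatin, which fell by 0.66 ± 0.17 (SE; adjusted p = 0.0461). Their median was -0.49 without busulfan and 0.01 with it. The mean level of the list was lowest in CTA10 replicate 3, at 4.64 in log2(FPKM + 1). Without that sample the pooled median of the list was -0.13, against -0.25 with it. Sox9, the Sertoli transcription factor, had a difference of -0.18 ± 0.20 (SE; adjusted p = 0.489). It was at 4.71 FPKM in CTA10 replicate 3 and at 12.28 FPKM or more in every other sample. Of 12 myoid genes 1 fell, Des (desmin, by 0.62), and Acta2, the actin of smooth muscle, had a difference of -0.27 ± 0.24 (SE; adjusted p = 0.395). Of 13 Leydig genes 0 were called (1 lower at an unadjusted p under 0.05). Insl3, a hormone of these cells, had a difference of 0.41 ± 0.23 and Star, the cholesterol carrier of steroid synthesis, one of 0.04 ± 0.14 (SE; adjusted p = 0.199 and 0.833), and the sign of Star changed with the setting.

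Interferon genes were lower in both states for 14 of 14 tested (44.5% of all genes tested were), with a median of -0.34. Of these 14 genes 3 fell, where 1.57% of all genes tested fell. Oasl2, of the oligoadenylate synthetase family, was at 10.13, 8.23 and 7.55 FPKM in CTA0, at 3.93 to 7.97 FPKM (median 7.14) with AOS, at 6.57, 8.46 and 10.65 FPKM in CTBA0 and at 3.66 to 5.63 FPKM (median 4.54) with AOS and busulfan. The groups overlapped in the first state and stood apart in the second, and it fell by 0.55 ± 0.13 (SE; adjusted p = 0.0451). Ifit3, a protein induced by interferons whose promoter holds 2 matches, was at 2.04, 2.29 and 1.9 FPKM in CTA0 and at 0.39 to 1.34 FPKM (median 0.78) with AOS, and at 1.74, 0.72 and 1.35 FPKM in CTBA0 and 0.46 to 1.51 FPKM (median 0.795) with AOS and busulfan. It stood apart without busulfan and overlapped with it, and fell by 0.52 ± 0.14 (SE; adjusted p = 0.0468). Its near copy Ifit3b may share reads with it. Irf9, a subunit of the factor that interferons activate, fell by 0.36 ± 0.10 (SE; adjusted p = 0.049). The interferon letters were in 7 of the 12 interferon genes with a promoter in the table (58.3%). Among all genes with a promoter the share was 3.46%, and among the tested ones 3.08%. It was 3.93% for genes called lower and 2.01% for genes called higher.

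Of 18 genes of Toll-like receptor and NF-kB signalling, the pathway through which cells sense microbial products, 0 were called (8 lower at an unadjusted p under 0.05) and 17 were lower in both states, with a median of -0.18. Over all genes tested, 44.5% were lower in both. Tlr4, the receptor for bacterial endotoxin, was at 3.08, 3.41 and 3.84 FPKM in CTA0 and at 1.49 to 3.85 FPKM (median 2.75) with AOS, and at 5.01, 4.05 and 5 FPKM in CTBA0 and 1.87 to 4.84 FPKM (median 3.58) with AOS and busulfan. The groups overlapped in both states and the difference was -0.34 ± 0.14 (SE; adjusted p = 0.108). Rela, a subunit of NF-kB, had a difference of -0.17 ± 0.06 (SE; adjusted p = 0.0717). Inflammatory mediators had 0 calls of 16 (1 lower at an unadjusted p under 0.05), a median of -0.12 and opposite signs in the 2 states for 9 genes.

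The other process lists held few calls. Hspa8, a chaperone, fell by 0.27 and was the 1 call of 14 heat shock genes. In that list 2 genes were higher and 6 lower at an unadjusted p under 0.05, and 10 were lower in both states. Casp8, a protease of cell death, fell by 0.33 and was the 1 call of 18 p53 and apoptosis genes. Of those 18, 0 were higher and 10 lower at an unadjusted p under 0.05, and 13 were lower in both states (median -0.24). Of all genes tested, 1.57% fell. Unfolded protein response (18 genes), antioxidant (21), hypoxia and glycolysis (20), respiratory chain (21), cytosolic ribosome (21), immediate early (19) and cholesterol synthesis (16) genes had 0 calls, and in each of these lists at most 1 gene was higher and at most 6 were lower at an unadjusted p under 0.05. Most genes were lower in both states in the antioxidant (19 of 21), ribosomal (20 of 21) and immediate early lists (13 of 19). Of all genes tested, 44.5% were. The medians of these lists were -0.19, -0.19 and -0.17. The hypoxia and glycolysis list was at 0.30 without busulfan and -0.40 with it, and 17 of its 20 genes had opposite signs. Of the 15790 genes tested, 4096 had. The mean level of this list, in log2(FPKM + 1), overlapped in both states. It was 6.09 to 6.25 in CTA0, 7.23 in CTA10 replicate 3 and 5.92 to 6.42 in the other AOS samples without busulfan. With busulfan it was 6.19 to 6.94 in CTBA0 and 5.72 to 6.7 with AOS.

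The fat and simple epithelium genes that fell had equal signs in both states, but their values were highest in the 3 CTBA0 samples. The margin was small for Plin4, at 2.3 FPKM in CTBA0 replicate 2 and 2.22 FPKM in CTA10 replicate 1. Fabp4 was not low in the samples outside CTBA0, at 35.93 to 128.14 FPKM. Over the whole lists, 1 of 10 fat genes and 4 of 12 simple epithelium genes had opposite signs. Krt7, a keratin of simple epithelium, was at 1.11, 0.44 and 0.14 FPKM in CTA0 and at 0.16 to 0.95 FPKM (median 0.435) with AOS, and at 10.54, 25.28 and 6.88 FPKM in CTBA0 and 0.1 to 1.18 FPKM (median 0.175) with AOS and busulfan. The 3 CTBA0 samples were high and the other 15 low. The pooled difference was -1.69 ± 0.44 (SE; adjusted p = 0.0461), with -0.07 ± 0.31 without busulfan and -3.30 ± 0.31 with it, and the 2 differed by -3.23 ± 0.44 (SE; adjusted p = 0.0211). Krt8, its usual partner, showed the same pattern, with 22.03, 58.87 and 20.65 FPKM in CTBA0 against 2.29 to 8.29 FPKM in the 15 other samples, and its differences in the 2 states, 0.02 and -2.74, also differed (adjusted p = 0.0496). Krt18 fell by 1.55 ± 0.40 (SE; adjusted p = 0.0461), with -0.17 without busulfan and -2.93 with it.

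Cfd, the fat-cell protein adipsin, had the largest fall. It was at 1.61, 0.31 and 0.22 FPKM in CTA0 and at 0.04 to 0.48 FPKM (median 0.17) with AOS, and at 113.68, 18.21 and 42.54 FPKM in CTBA0 and 0.03 to 6.18 FPKM (median 1.42) with AOS and busulfan. It fell by 2.33 ± 0.60 (SE; adjusted p = 0.0461), with -0.45 ± 0.58 and -4.22 ± 0.58 in the 2 states. Car3, a carbonic anhydrase of fat and muscle, was at 83.24, 11.12 and 9.25 FPKM in CTBA0 and at no more than 1.06 FPKM in the other samples, and fell by 2.06 ± 0.53 (SE; adjusted p = 0.0461). Retn (by 1.81), Cidec (by 1.30), Fabp4 (by 0.93) and Plin4 (by 0.92), all genes of fat cells, fell as well. Without CTBA0 replicate 1 the difference was -0.83 for Cidec and -0.61 for Fabp4. In all, 6 of 10 fat genes and 2 of 12 simple epithelium genes fell, against 1.57% of all genes tested. The list medians were -0.25 and 0.01 without busulfan and -1.52 and -1.30 with it. The mean level of the fat list was 3.21 to 5.27 in CTBA0 and 1.48 to 2.35 in the other 15 samples, in log2(FPKM + 1). Crisp1, a secreted protein of the epididymis, was at 1.83, 37.37 and 2.8 FPKM in CTBA0 and at 0 to 0.24 FPKM in the other 15 samples, and its pooled difference of -1.38 ± 0.49 (SE) was not called (adjusted p = 0.0776). Of the 5 tested genes of the epididymis list, 1 rose, Spink2 (by 0.63), where 3.29% of all genes tested rose. The testis also expresses Spink2, which unlike Crisp1 was at 79.81 to 401.05 FPKM over the 18 samples. Of 3 erythrocyte genes 0 were called and 1 was lower at an unadjusted p under 0.05. The part of tissue next to the testis in these values was not tested.

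**Figure D5:**
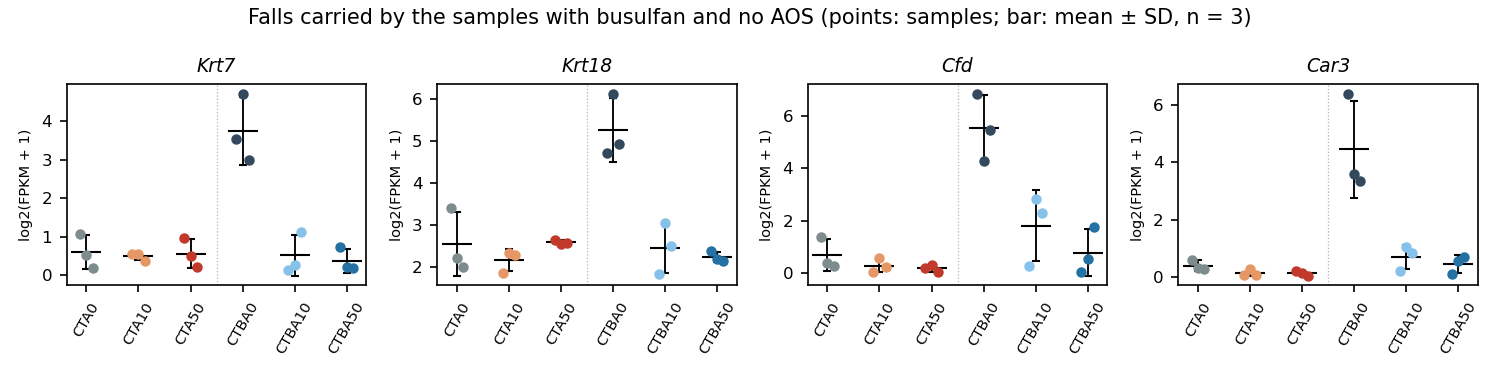
Levels of Krt7, Krt18, Cfd and Car3 in log2(FPKM + 1) in each of the 18 samples (points) by group, with the mean and SD of 3 samples (bars). The 3 CTBA0 samples stand above all other samples, and the AOS differences without busulfan run from -0.07 for Krt7 to -0.45 for Cfd. Each panel has its own scale.

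Other large falls of epithelial and mesothelial genes had values below 0 in both states and were not called in the interaction. The same held for Krt18, Cfd and Car3. Cd24a had an unadjusted interaction p of 0.00504 by limma, and its groups stood apart only with busulfan. For Cd24a, a surface protein of many epithelia, CTBA0 replicate 2 was at 54.47 FPKM and the other CTBA0 samples at 11.85 and 13.98 FPKM, and the difference was -0.34 ± 0.34 without busulfan and -1.90 ± 0.34 with it (SE). Msln, a protein of mesothelium, had differences of -0.95 ± 0.36 and -1.56 ± 0.36, and Sprr1a, of cornified epithelium, -1.08 ± 0.59 and -2.16 ± 0.59 (SE). In the pooled comparison Cd24a fell by 1.12, Msln fell by 1.26 and Sprr1a fell by 1.62 (adjusted p = 0.0468, 0.0451 and 0.0461). Without CTBA0 replicate 2 the difference of Cd24a was -0.73.

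The 2 AOS concentrations were not told apart. Added after the data were seen, a comparison of the 50 and 10 μg/mL samples with busulfan as a block called 0 of 15790 genes by limma (smallest adjusted p = 0.482), and 453 genes were higher and 255 lower at 50 μg/mL at an unadjusted p under 0.05. Against the same samples without AOS, 10 μg/mL alone gave 0 calls and 50 μg/mL alone gave 1475 higher and 1048 lower. For the meiotic list the median difference was 0.35 at 10 μg/mL and 0.49 at 50 μg/mL, for the endothelial list -0.40 and -0.55, and for the interferon list -0.36 and -0.32. A count at 1 concentration and 0 at the other is not a difference between them, and the direct test gave none.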

How the data were processed

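The values were FPKM of 18 mouse testis samples, which the authors deposited in 1 table with 2 decimals. The submitters' processing notes name HISAT, Bowtie2, RSEM and GRCm38.p5, whereas the supplementary methods describe SOAPaligner and RPKM. Read depth is unknown, so no interval based on counts is given, and precision was judged from the samples of each group. The FPKM of a sample summed to between 463970 and 511274. Gene numbers (20811) were matched to symbols through RefSeq (20656) and GENCODE (23), and 1846 gene models carry no number.

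The test covered genes that reached 1 FPKM in 3 samples or more. It used limma 3.58.1 in R 4.3.3 (eBayes with trend) on log2(FPKM + 1), pseudocount 1, with terms for busulfan and AOS (15 residual degrees of freedom). The values within each busulfan state and the interaction came from a fit with 1 mean for each combination of busulfan and AOS (14 residual degrees of freedom). The fits were tested on simulated data. P-values were adjusted over all genes tested. Exact two-sided permutation tests for named genes rearranged the AOS labels within each busulfan state and are not adjusted. The named genes were the 12 largest rises and falls among called genes of equal sign with an established symbol and a mean of at least 2 FPKM, the called members of each list (or, with none, the member with the smallest p), the genes called in the interaction, and 10 markers. The genes, lists and tests were chosen with earlier results of these data known. Promoter letters came from the RefSeq table of GRCm38.p6, in which 4 motifs were searched on both strands (MYB, interferon, CRE and ETS), and the CRE and ETS shares were 1.94% and 5.81% of the promoters of genes called higher, against 2.36% and 5.13% for genes tested. Replicate numbers were not used as a block, since the labels do not say that a number marks a shared animal or culture. The methods of the study state that the cultures were repeated, without linking a repeat to a sample number. Same-numbered samples also did not deviate together in all pairs of groups. Alternatives were the replicate block, pseudocount 0.1, no filter, a filter at a mean of 5 FPKM, equal FPKM sums, quantile normalization, eBayes without trend or robust, sample weights, the limits of the study, each concentration alone, group means, and each sample left out. Tables and figures were made with Python, pandas, NumPy, SciPy and matplotlib.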

Additional observations from a re-analysis of the deposited data

Results flagged for a closer look

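The AOS difference was not the same in the 2 busulfan states for Krt7 and Krt8, keratins of simple epithelium, by limma's interaction test over all genes tested. The difference with busulfan minus that without it was -3.23 for Krt7 (adjusted p = 0.0211) and -2.76 for Krt8 (adjusted p = 0.0496). Both genes were high in all 3 CTBA0 samples and low in the other 15. Fat genes (Cfd) and an epididymal gene (Crisp1) were also highest in CTBA0, and their part in the keratin values was not tested. Outliers were not sought, since each group had 3 samples.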

How the results depend on the processing

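The calls of the pooled comparison (520 higher, 248 lower) went to 0 and 0 with a replicate block (2404 higher and 2982 lower at an unadjusted p under 0.05), with 10 μg/mL alone (907 and 1410) and with the limits of the study, to 0 and 1 without a filter, and to 1 and 6 with group means. They were 822 and 272 after quantile normalization, 2044 and 2391 with sample weights, and 1475 and 1048 with 50 μg/mL alone. Leaving out 1 sample gave 0 to 1186 and 0 to 802. The interaction (2 genes) gave 1 with the replicate block, pseudocount 0.1, no filter, no trend and robust eBayes, 0 with the strict filter, the limits of the study, either concentration and group means, 16 with sample weights, and 0 to 11 without 1 sample. Without busulfan (4 genes) the count was 1 with pseudocount 0.1, 0 with the strict filter and the limits of the study, 8 after quantile normalization, 4013 with sample weights and 0 to 19 without 1 sample. With busulfan (33 genes) it was 20, 6 and 4 with pseudocount 0.1, the strict filter and the limits of the study, 112 without a filter, and 16 to 35 without 1 sample. Genes apart in both states in 1 direction (90) numbered 55 under the strict filter, which tested 10679 genes. Without 1 sample they numbered 90 to 571, the highest without CTBA0 replicate 2. Leaving out a sample can only keep or raise this count, since the genes tested stay the same. Beyond this, the cause of the changes between settings was not tested.

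Each named gene that was called kept its sign in every alternative run for it. Star, which was not called (0.04), reversed to -0.01 with sample weights, to -0.08 with 50 μg/mL alone, and to -0.05 and -0.01 without CTBA0 replicate 1 and CTBA10 replicate 1 (-0.05 to 0.09 over the samples left out). Same-numbered samples of different groups deviated together in some pairs of groups and apart in others (r across genes from -0.436 to 0.499 over 15 pairs). All pairs of busulfan groups were over 0.1 (0.112 for CTBA0 and CTBA10, 0.386 for CTBA0 and CTBA50, 0.499 for CTBA10 and CTBA50). A replicate block among the busulfan samples only, tried after the data were seen, gave 1506 higher and 1309 lower. What the numbers stand for is not given in the labels. The unknown read depth limits the reading of genes near 1 FPKM, such as Piwil1 and Lypd11 in the busulfan samples.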

Other observations

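Gene families of the flagellum and of testis kinases were looked at by symbol, after the values had been seen. Of 12 tested genes for axonemal dynein heavy chains (Dnah), the motors of the sperm tail, 9 rose with AOS and 0 fell, and all 12 were higher in both busulfan states, with differences from 0.37 to 0.64. Of 33 tested Cfap genes (cilia and flagella associated proteins), 11 rose and 33 were higher in both states (median 0.43). Of 11 tested genes of CatSper, the calcium channel of the sperm tail, 5 rose and 10 were higher in both states (median 0.49). Of 6 radial spoke genes (Rsph), 2 rose and 6 were higher in both states. Of 6 testis-specific serine kinase genes (Tssk), 0 were called by limma and 5 were higher in both states, with medians of 0.24 without busulfan and 0.64 with it. Of the 15790 genes tested, 3.29% rose, 4670 were higher in both states and 7024 were lower in both. For comparison, of 74 genes for cytosolic ribosomal proteins 0 were called by limma and 68 were lower in both states (median -0.19), and of 34 complex I genes 0 were called and the median was -0.03. Of 969 tested gene models without a gene number, 13 rose and 4 fell. Ddx4, an RNA helicase of germ cells that was in no list, rose by 0.53 ± 0.14 (SE; limma adjusted p = 0.0461). Enpp2, the enzyme autotaxin, fell by 0.61 ± 0.11 (SE; limma adjusted p = 0.0451).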
